A study of Mus musculus with 8 samples.

Results

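The genes described here are 8 transcripts by which classical inflammatory monocytes are commonly recognised in the mouse, Ly6c2, Plac8, Chil3, F13a1, Ms4a4c, Lyz2, Gda and Emb. They were taken by symbol from a deposited table of 12256 genes, and all 8 were found there, Chil3 under its older symbol Chi3l3. The table covers 8 RNA-seq libraries of monocyte-derived dendritic cells, 4 from mice given vehicle (PBS, 10 µL) and 4 from mice given 1000000 neural precursor cells (NPC) in the same volume, by a route given as intrathecal in the protocol and abbreviated ic in the condition label. Every mouse was C57Bl/6 and carried experimental autoimmune encephalomyelitis (EAE), a model of multiple sclerosis in which a peptide of myelin oligodendrocyte glycoprotein raises T cells against myelin. The labels differ on timing, with treatment 4 days after the onset of signs in one field and 2 to 4 days in another, and cells were sorted 7 days later from hindbrain and spinal cord for high CD45, for CD11b, Ly6C and MHC class II, for intermediate CD11c and for absence of the neutrophil protein Ly6G. Each library held the pooled cells of 4 to 7 mice, so that animals within a pool cannot be separated. No label pairs a PBS library (1 to 4) with an NPC library (A to D).

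Classical monocytes leave the bone marrow through the chemokine receptor CCR2 and carry high Ly6C on their surface. In inflamed tissue they lose parts of this monocyte program while they take on features of dendritic cells or macrophages, and in EAE they are a main source of the inflammatory myeloid cells of the spinal cord. The genes described here mark the monocyte end of that course, although none belongs to monocytes alone, since Lyz2, Chil3 and Plac8 are also transcribed in neutrophils and some macrophages. Because the gate itself demanded Ly6C, the level of Ly6c2 describes cells that were chosen in part for its product.

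The libraries differed in depth together with treatment. The PBS libraries held 7702189 to 21068166 reads in the genes of the table and the NPC libraries 2653818 to 7003542, a mean depth 3.21 times higher in PBS. The identity genes were well above the counting floor in all of them, with 268 reads or more per library for every one of the 8. On the first principal component over all genes (31.9% of the variance) PBS 1 scored 36.2 and NPC A 44.3, apart from the other 6 libraries (-26.03 to -1.98), and NPC B was the shallowest library. Values without single libraries are given beside the results that they moved most. Transcripts of the other sorted proteins were present in every library, among them Ptprc (CD45), Itgam (CD11b), Itgax (CD11c) and H2-Ab1, while Ly6g is not analysed here.

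All values are log2 normalised expression, in which 1 unit is a 2-fold difference and the linear value is reads per 1000000 of a scaled library, not divided by gene length. Only when divided by the summed length of the annotated exons can levels be set against each other across genes. On that per-kilobase log2 scale Lyz2 had a level of 13.72 (13.26 to 14.01 over the 8 libraries), rank 5 of 11377 genes with a length, and Chil3 a level of 10.13 (9.14 to 11.07), rank 21. Ly6c2 followed at 7.13 (6.71 to 7.53), rank 167, and Plac8 at 6.44 (5.34 to 7.27). Ms4a4c (5.79), Gda (5.55), Emb (5.28) and F13a1 (4.96) came last, at ranks 506 to 963. Lyz2 and Chil3 did not overlap with any other of the 8 genes in any library, whereas the range of each of the other 6 overlapped with that of its neighbour in this order. Exon lengths that include rarely used exons lower such a level, which bears most on Emb, with 6906 bases of exon and a longest transcript of 2923.

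Whether neural precursor cells shifted this monocyte signature was asked gene by gene. None of the 8 genes passed the test for a difference between treatments. With limma and Benjamini-Hochberg adjustment over the whole table, 0 of the 8 and 0% of the 12256 genes reached the threshold of 0.05, and with voom on the recovered reads the count was again 0 of 8. Without adjustment, 0 of 8 had p under 0.05 in either fit, against 11.3% of all genes with limma. In none of the 8 did the 4 PBS and the 4 NPC libraries separate without overlap, against 6.78% of all genes. The NPC mean was higher for 5 genes and lower for 3, with a median log2 fold change of 0.02, which is also the median over all genes. With each library left out in turn the median of the 8 ran from -0.072 to 0.044. The smallest unadjusted p among the 8 was 0.128, for Plac8.

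**Figure D1:**
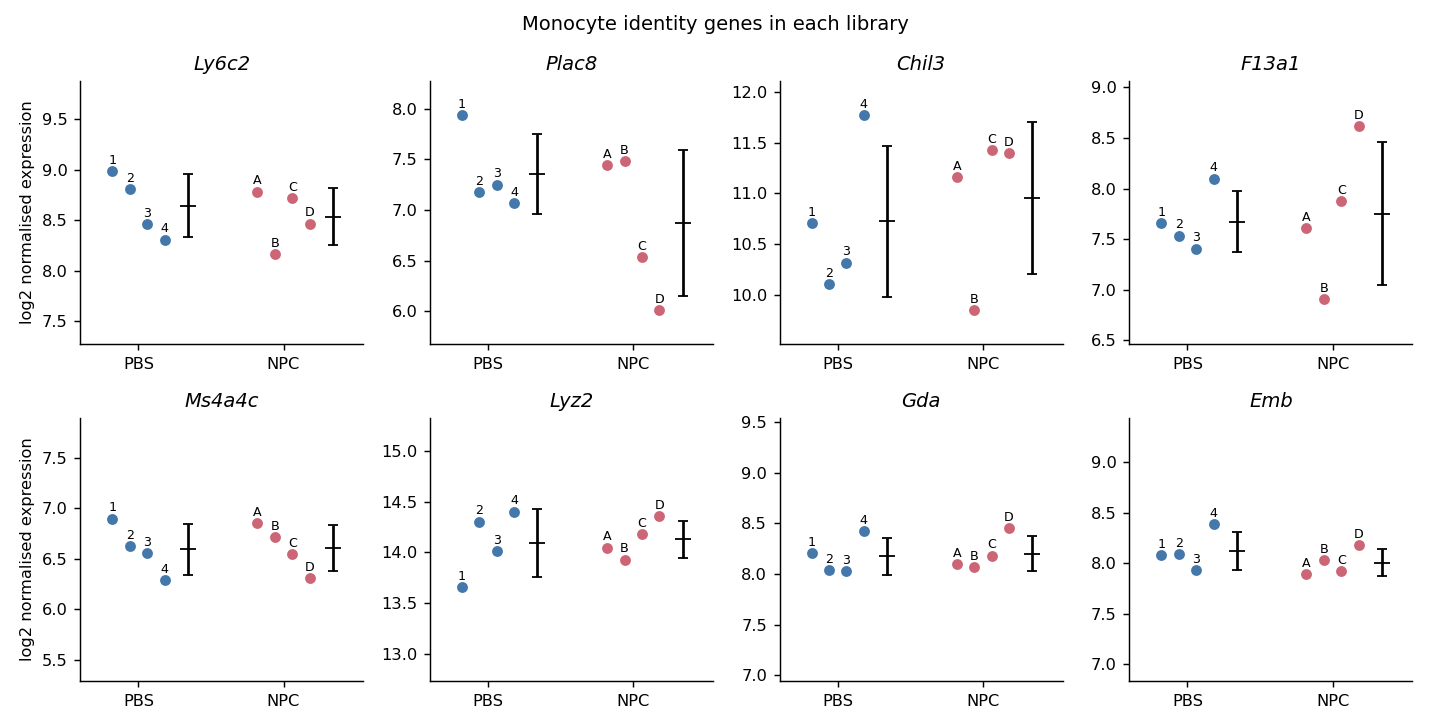
Log2 normalised expression (y axis, the same span of 2.6 units in each panel, centred on each gene) of the 8 monocyte identity genes in PBS libraries 1 to 4 (blue) and NPC libraries A to D (red); each point is 1 library and the black bars are the group mean ± SD (n = 4). The groups overlap in every panel, and Plac8, Chil3 and F13a1 spread most widely.

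Ly6c2 encodes a small glycosylphosphatidylinositol-anchored protein that the antibody against Ly6C detects. It lies on chromosome 15 (75108158 to 75111970, minus strand). Its log2 value was 8.99, 8.81, 8.46 and 8.31 in PBS 1 to 4 and 8.78, 8.16, 8.72 and 8.47 in NPC A to D. PBS 1 was highest and NPC B lowest, and 3 of the 4 NPC libraries lay inside the PBS range. The means were 8.64 ± 0.31 and 8.53 ± 0.28 (SD, n = 4 each), a log2 fold change of -0.11 with a 95% interval from -0.49 to 0.27 (limma adjusted p = 0.856). The sign turned without PBS 1 (0.0063) and without NPC B (0.015). Ly6c1, the close relative of Ly6c2 that the same antibody recognises, is not analysed here, and reads that match both genes cannot be assigned with certainty. The neighbouring family members Ly6a and Ly6i had log2 fold changes of -0.01 and -0.06, and neither passed the test. Of 12 measured relatives of the 8 genes 6 were higher and 6 lower, and 0 passed or had an unadjusted p under 0.05. Those with the smallest p, with log2 fold changes in brackets, were Ms4a4b (0.42), Bsg (-0.16), which encodes basigin, and Ms4a7 (0.17). Without NPC A the values were 0.21 for Ms4a4b and -0.010 for Bsg, and without PBS 1 that of Ms4a7 was -0.063.

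Plac8 encodes a short cysteine-rich protein of myeloid and lymphoid cells, also called onzin, which is needed for normal killing of bacteria by phagocytes. The gene lies on chromosome 5 (100553725 to 100572245, minus strand). Its log2 value was 7.94, 7.17, 7.25 and 7.07 in PBS 1 to 4 and 7.44, 7.49, 6.54 and 6.01 in NPC A to D. NPC C and NPC D lay below every PBS library, whereas NPC A and NPC B lay above PBS 2, 3 and 4. The means were 7.36 ± 0.39 and 6.87 ± 0.72 (SD, n = 4 each), with a log2 fold change of -0.49 (SE 0.30, 95% interval -1.14 to 0.16) and a limma adjusted p of 0.567. The difference hung on single libraries, being -0.20 without NPC D, -0.30 without PBS 1 and -0.69 without NPC B. In reads, Plac8 rested on 1211 to 3861 per PBS library and 333 to 708 per NPC library. Thinning every library to the depth of the shallowest gave -0.42.

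Chil3 encodes a secreted chitinase-like lectin, also called Ym1, that has lost the enzyme's activity and is made by monocytes, by neutrophils and by alternatively activated macrophages. It lies on chromosome 3 (106147554 to 106167564, minus strand). Its log2 value was 10.71, 10.10, 10.32 and 11.77 in PBS 1 to 4 and 11.16, 9.84, 11.43 and 11.40 in NPC A to D. PBS 4 was highest and NPC B lowest, and the span from lowest to highest was 3.81-fold. Chil3 took 0.0886% of the table's reads in NPC B and 0.317% in PBS 4. The means of 10.72 ± 0.74 and 10.96 ± 0.75 (SD, n = 4 each) differed by 0.23 (95% interval -0.61 to 1.08; limma adjusted p = 0.863), well within the spread inside each group. Without NPC B the difference was 0.60, without PBS 4 it was 0.58 and without PBS 2 it was 0.03. The relative Chil4 is not analysed here, so that reads shared between the pair cannot be told apart.

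F13a1 encodes the A subunit of coagulation factor XIII, the transglutaminase that cross-links fibrin, and lies on chromosome 13 (36867178 to 37050244, minus strand). Its log2 value was 7.66, 7.53, 7.41 and 8.10 in PBS 1 to 4 and 7.61, 6.91, 7.88 and 8.61 in NPC A to D. The NPC libraries held both the lowest (NPC B) and the highest (NPC D) value, and they spanned 1.70 log2 units against 0.69 in PBS. The log2 fold change was 0.08 (95% interval -0.53 to 0.69; limma adjusted p = 0.941). It became 0.36 without NPC B, and the sign turned without PBS 3 (-0.011) and without NPC D (-0.21).

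Lyz2 encodes lysozyme M, which cleaves bacterial peptidoglycan, and is the most abundant of the 8. It lies on chromosome 10 (117277331 to 117282321, minus strand). Its log2 value was 13.66, 14.30, 14.01 and 14.40 in PBS 1 to 4 and 14.05, 13.93, 14.18 and 14.36 in NPC A to D. PBS 1 stood lowest, and every NPC library lay inside the PBS range. Lyz2 alone took 1.29% of the table's reads in PBS 1 and 2.00% in NPC C. The log2 fold change was 0.04 (95% interval -0.60 to 0.68; limma adjusted p = 0.975), and it was -0.11 without PBS 1, -0.041 without NPC D and -0.083 without PBS 1 and NPC A together. Lyz1, the adjoining paralog known for Paneth cells of the gut, had means of 4.46 ± 0.29 with vehicle and 4.51 ± 0.16 with precursor cells (SD, n = 4 each), and reads common to the pair cannot be assigned with certainty.

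The other 3 genes varied least. Ms4a4c, a membrane-spanning protein of the MS4A family on chromosome 19 (11404770 to 11427246, plus strand), had log2 values of 6.90, 6.62, 6.56 and 6.29 in PBS 1 to 4 and 6.85, 6.71, 6.55 and 6.31 in NPC A to D. Both groups covered almost the same interval, and the log2 fold change was 0.01 (95% interval -0.31 to 0.34; limma adjusted p = 0.980). Gda encodes guanine deaminase, which turns guanine into xanthine, and lies on chromosome 19 (21391307 to 21473445, minus strand). It had log2 values of 8.21, 8.04, 8.03 and 8.42 in PBS 1 to 4 and 8.10, 8.07, 8.18 and 8.46 in NPC A to D, with PBS 4 and NPC D highest in their groups. Its log2 fold change was 0.03 (95% interval -0.26 to 0.31; limma adjusted p = 0.958). Emb encodes embigin, an immunoglobulin-superfamily glycoprotein that accompanies monocarboxylate transporters to the cell surface, and lies on chromosome 13 (117208536 to 117274415, plus strand). Its log2 values were 8.08, 8.09, 7.93 and 8.38 in PBS 1 to 4 and 7.89, 8.03, 7.92 and 8.18 in NPC A to D. Here too PBS 4 and NPC D were highest in their groups, and the log2 fold change was -0.11 (95% interval -0.39 to 0.16; limma adjusted p = 0.766). It was -0.027 without PBS 4 and -0.18 without PBS 3. An unstranded count would add reads from a gene on the opposite strand that shares 686 exon bases with Emb, and F13a1 (74 bases) and Ms4a4c (28 bases) have smaller overlaps of that kind.

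The precision set how large a shift could have gone unseen. A 2-fold difference, up or down, lay outside the 95% interval of 6 genes, and for Gda and Emb it lay between 0.77-fold and 1.24-fold. The interval of Plac8 reached down to 0.45-fold and that of Chil3 up to 2.11-fold, so for these 2 genes a 2-fold difference was within the interval. These are bulk values, in which fewer cells of a type and less RNA per cell cannot be told apart.

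**Figure D2:**
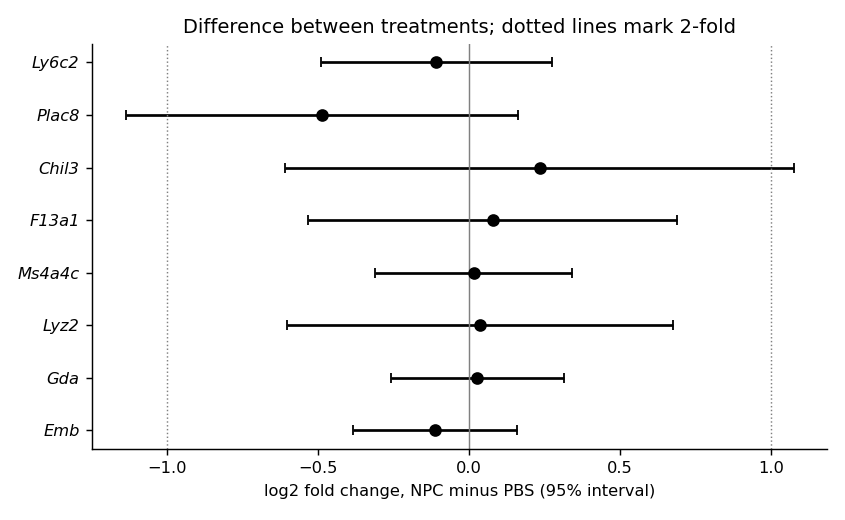
Log2 fold change (x axis, NPC minus PBS) of each of the 8 genes with its 95% interval from limma, 4 libraries per group; dotted lines mark a 2-fold difference. Every interval includes 0, and those of Plac8 (-1.14 to 0.16) and Chil3 (-0.61 to 1.08) cross a dotted line.

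While no gene passed the test between treatments, libraries of the same treatment varied. The within-group SD was 0.75 for Chil3, 0.58 for Plac8 and 0.54 for F13a1, against a median of 0.19 over the 3842 genes with a mean log2 value of at least 5. These SDs stood at the 98.5, 97.6 and 97.3 percentile of those genes. Ly6c2 (0.30), Lyz2 (0.27) and Ms4a4c (0.24) were at the 84.8, 79.2 and 70.7 percentile. Gda (0.18) and Emb (0.16) lay below the median.

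The 8 genes did not rise and fall as a single block. Plac8 and Ms4a4c were both highest in PBS 1 and both low in NPC D, where Ms4a4c was 0.29 log2 units under its mean over the 8 libraries and Plac8 had its lowest value (6.01). F13a1, Gda and Lyz2 did the reverse in NPC D, at 0.90, 0.27 and 0.25 above their means. In PBS 4 Chil3 was 0.93 and F13a1 0.38 above its mean, while Ly6c2 was 0.28 and Ms4a4c 0.31 under theirs. In NPC B the deviation was -0.80 for F13a1 and -0.42 for Ly6c2, and Chil3 had its lowest value, but Plac8 was 0.37 above its mean. The level of Chil3 relative to Plac8 within a library, which no scaling of the library can alter, therefore ran from 2.36 log2 units in NPC B to 5.39 in NPC D. Its mean was 3.37 ± 0.90 with vehicle and 4.09 ± 1.35 with precursor cells (SD, n = 4 each), so the spread inside each group was larger than the step between them.

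**Figure D3:**
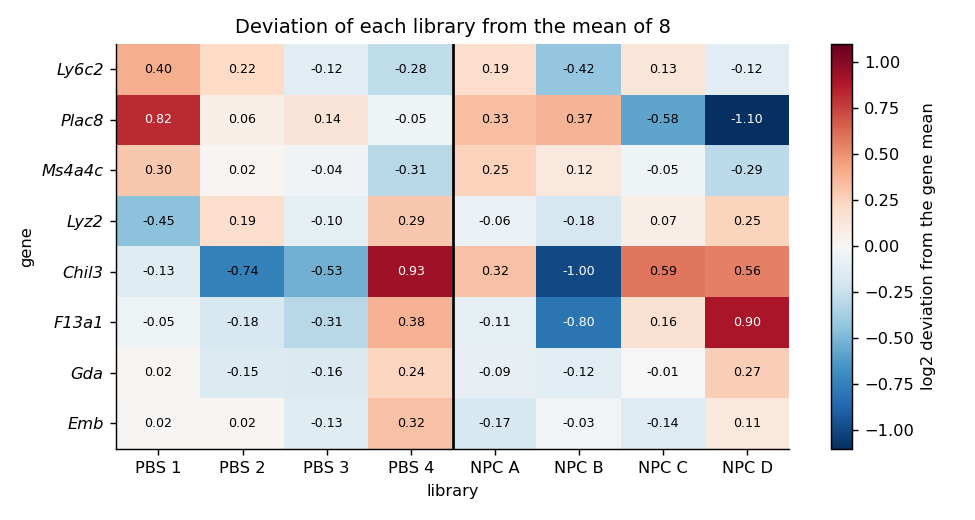
Deviation of each library (x axis) from the gene's mean over the 8 libraries, in log2 units, for the 8 genes (y axis); red is above and blue below the mean, and the black line parts PBS from NPC libraries. Plac8 is low in NPC C and NPC D, where Chil3 and F13a1 are high, and NPC B is low for Chil3, F13a1 and Ly6c2.

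Across the 8 libraries 28 pairs of these genes were compared, 15 with a positive and 13 with a negative Pearson correlation. None passed after Benjamini-Hochberg adjustment over the 28 pairs, by Pearson or by Spearman correlation (exact two-sided permutation). The pair with the smallest p was F13a1 and Gda, with r = 0.87 (exact permutation p = 0.00198, adjusted p = 0.0556) and rho = 0.90 (exact p = 0.00456, adjusted p = 0.0676; n = 8 libraries). Leaving out the 2 libraries farthest from the median of F13a1 left r at 0.93. Chil3 and F13a1 had r = 0.82 (exact permutation p = 0.00794, adjusted p = 0.0926) and rho = 0.88 (exact p = 0.00724, adjusted p = 0.0676), and r was 0.70 without the 2 farthest libraries. Neither relation passed the adjusted test.

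Other pairs ran in opposite directions. Ms4a4c and Lyz2 had r = -0.84 (exact permutation p = 0.00992, adjusted p = 0.0926) and rho = -0.83 (exact p = 0.0154, adjusted p = 0.0861; n = 8), with r = -0.66 without the 2 libraries farthest on Ms4a4c. Plac8 and F13a1 had r = -0.73 (exact permutation p = 0.0426, adjusted p = 0.149) and rho = -0.67 (exact p = 0.0831, adjusted p = 0.293), with r = -0.65 without the 2 farthest. Plac8 and Ms4a4c went together, with r = 0.78 (exact permutation p = 0.0207, adjusted p = 0.116) and rho = 0.88 (exact p = 0.00724, adjusted p = 0.0676), but r was 0.51 without the 2 libraries farthest on Plac8. Plac8 and F13a1 were not chosen by smallest p. Smaller values were found for Chil3 and Gda (r = 0.79, exact permutation p = 0.0199), Gda and Emb (0.75, p = 0.0302) and Plac8 and Lyz2 (-0.75, p = 0.0321). Without the 2 libraries farthest on the first gene, r was 0.70, 0.012 and -0.49 in that order. Over the 6 libraries other than PBS 1 and NPC A, r was 0.87 for F13a1 and Gda, 0.85 for Chil3 and F13a1, -0.78 for Ms4a4c and Lyz2, -0.88 for Plac8 and F13a1 and 0.63 for Plac8 and Ms4a4c. The r of Ly6c2 with the other 7 genes lay between -0.35 and 0.56. All of these values come from the same libraries and share their depth and scaling.

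**Figure D4:**
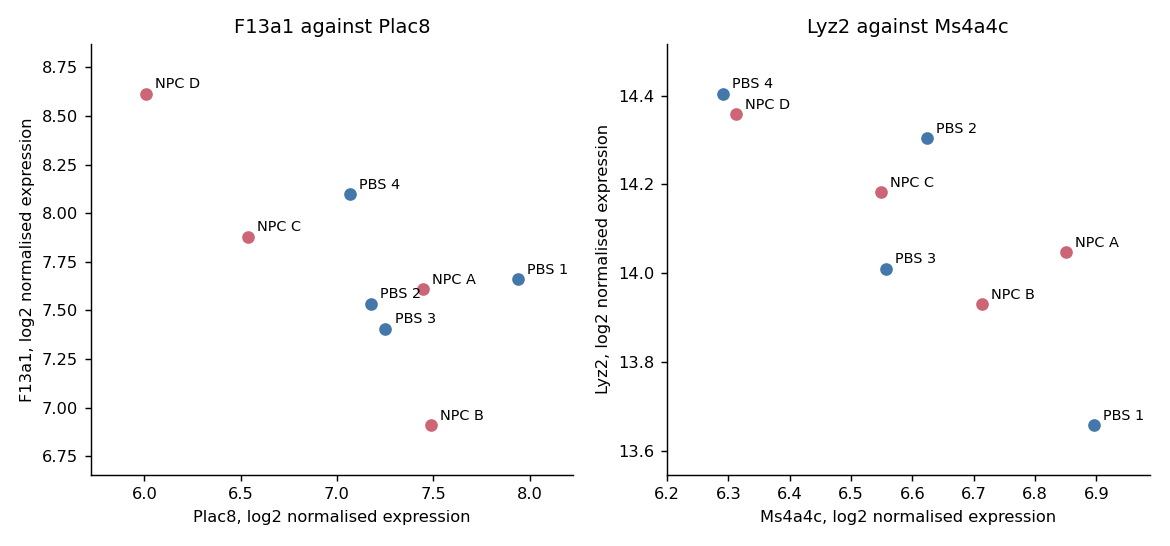
F13a1 (y axis) against Plac8 (x axis) on the left and Lyz2 (y axis) against Ms4a4c (x axis) on the right, all in log2 normalised expression, 1 point per library (blue PBS, red NPC). NPC D lies at the upper left of both plots, with low Plac8 (6.01) and Ms4a4c (6.31) and high F13a1 (8.61) and Lyz2 (14.36).

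The promoters of the 4 genes at the ends of these relations are shown for comparison, Plac8 and Ms4a4c, which were high in PBS 1, and Chil3 and F13a1, which were high in PBS 4. Each runs from 250 bases before to 50 bases after the most upstream start in RefSeq (GRCm38.p6) and reads 5′ to 3′ on the gene's strand. Capitals mark matches, on either strand, to letters that the myeloid factor PU.1 (GAGGAA), C/EBP factors (TTGCNNAA) and interferon regulatory factors (GAAANNGAA) are known to bind. The windows are chr5:100572156-100572455 (minus strand) for Plac8, chr19:11407411-11407710 (plus strand) for Ms4a4c, chr3:106167515-106167814 (minus strand) for Chil3 and chr13:37050195-37050494 (minus strand) for F13a1.
Plac8: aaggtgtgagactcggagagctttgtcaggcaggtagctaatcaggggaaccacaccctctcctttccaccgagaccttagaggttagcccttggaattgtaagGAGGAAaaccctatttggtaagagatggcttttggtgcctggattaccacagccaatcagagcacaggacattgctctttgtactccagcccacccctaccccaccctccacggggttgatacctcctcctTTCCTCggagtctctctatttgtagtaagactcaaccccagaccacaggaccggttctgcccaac
Ms4a4c: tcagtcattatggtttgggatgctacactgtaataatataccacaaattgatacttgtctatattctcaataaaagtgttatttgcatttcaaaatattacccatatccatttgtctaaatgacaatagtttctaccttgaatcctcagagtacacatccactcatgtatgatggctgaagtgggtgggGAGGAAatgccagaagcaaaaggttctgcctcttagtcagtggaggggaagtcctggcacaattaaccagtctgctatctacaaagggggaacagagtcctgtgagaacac
Chil3: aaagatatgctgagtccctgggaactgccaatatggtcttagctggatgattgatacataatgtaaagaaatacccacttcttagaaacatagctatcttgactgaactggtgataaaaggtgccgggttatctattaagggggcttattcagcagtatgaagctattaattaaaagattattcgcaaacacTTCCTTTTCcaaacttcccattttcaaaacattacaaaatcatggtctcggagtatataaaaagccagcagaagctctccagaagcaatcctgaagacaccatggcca
F13a1: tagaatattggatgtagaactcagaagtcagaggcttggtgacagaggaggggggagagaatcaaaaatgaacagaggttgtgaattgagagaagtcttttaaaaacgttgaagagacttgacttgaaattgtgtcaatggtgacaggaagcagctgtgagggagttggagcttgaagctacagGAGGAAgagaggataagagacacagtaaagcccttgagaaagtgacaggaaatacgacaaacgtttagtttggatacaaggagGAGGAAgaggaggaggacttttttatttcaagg

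Matches to the PU.1 letters stood in the windows of 5 of the 8 genes, in Ly6c2, Plac8 and F13a1 with 2 each and in Ms4a4c and Gda with 1 each. Of all 32851 promoter windows of this length, 28.3% hold these letters. The Chil3 window held the only match to the interferon regulatory factor letters among the 8 (8.56% of all windows), and the Gda window the only match to the C/EBP letters (10.8%). These matches are descriptions of the letters in 1 window per gene and did not part Plac8 and Ms4a4c from F13a1.

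For each of the 8 genes, the genes with the most similar profile were sought among the 5852 genes with a mean log2 value of at least 4, by the root mean square difference of the mean-centred log2 values over the 8 libraries. Ly6c2 lay nearest to Rab27a (0.11), a small GTPase of secretory granules, and Stat5a (0.11), a transcription factor downstream of cytokine receptors such as that for GM-CSF. Chil3 and F13a1 had the same nearest gene, the calcium channel subunit Cacna1d (0.30 and 0.16), and next came Arg1 (0.34), the arginase gene, for Chil3 and Agap1 (0.17) for F13a1. Arg1 was at 10.80 in PBS 4, 10.46 in NPC C and 10.98 in NPC D and at 9.11 in NPC B, as Chil3 was high and low there, but NPC A had 11.16 for Chil3 and 9.58 for Arg1. Plac8 was nearest to Ogfr (0.21) and Cd2bp2 (0.21), both lowest in NPC D as Plac8 was. Ms4a4c was nearest to the kinase gene Mink1 (0.07) and to Irgm1 (0.08), an interferon-inducible GTPase. For Lyz2 these genes were Galnt7 (0.07) and Vps26a (0.08), for Gda Afg3l2 (0.07) and Rtn3 (0.08), and for Emb Myo7a (0.07) and Ywhab (0.08). A gene that varies little is near many others by this measure, so the small values for Gda and Emb are not closer likeness than those for Chil3. Some gene is always nearest, and these were chosen by likeness over the same libraries. Shared high and low libraries therefore follow from the choice and are no separate result.

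No other gene of classical monocytes listed for comparison passed the test between treatments. Of 20 companion genes in the table, 7 were higher and 13 lower in NPC libraries, with a median log2 fold change of -0.05, and 0 passed limma's test or had an unadjusted p under 0.05. Ccr2, the receptor by which these cells leave the marrow, had a mean of 9.55 ± 0.19 with vehicle and 9.48 ± 0.57 with precursor cells (SD, n = 4 each). Among those with the smallest unadjusted p were Cd177 (log2 fold change -0.42, 95% interval -1.04 to 0.20), which rested on as few as 8 reads, and the chemokine gene Cxcl10 (0.23, interval -0.13 to 0.59). Cd177 was at -0.21 without PBS 3 and Cxcl10 at 0.40 without NPC A. The list's median turned to 0.024 without NPC B and 0.061 without NPC D. Of 15 regulators of monocyte development 9 were higher and 6 lower (median 0.02). In this list 0 passed and, against 11.3% of all genes, 1 had an unadjusted limma p under 0.05. This was Cebpb, a C/EBP factor that supports survival of Ly6C-low monocytes, which was at 6.25 ± 0.42 in PBS and 5.80 ± 0.21 in NPC libraries (log2 fold change -0.45, SE 0.19, limma adjusted p = 0.413). Zeb2, a transcription factor, was at 10.22 ± 0.16 and 10.53 ± 0.25 (log2 fold change 0.32, SE 0.16, limma adjusted p = 0.481). Flt3, a receptor of dendritic cell precursors, had a wide interval (log2 fold change 0.75, 95% interval -0.22 to 1.72), and its value was 1.01 without NPC A but 0.34 when NPC B and 0.43 when PBS 1 was left out. The median of the regulators was -0.010 without NPC B and -0.014 without NPC D.

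Genes of the states that monocytes move on to were compared in the same way. The gate demanded Ly6C, MHC class II and intermediate CD11c, which selects against Ly6C-low cells. It also chose cells in part for the products of Itgax and the class II genes of the dendritic cell list. These lists therefore describe cells inside the gate and cannot show which states monocytes outside it took. Of 13 measured genes of patrolling Ly6C-low monocytes 5 were higher and 8 lower (median -0.07), and 0 passed, with 1 at an unadjusted p under 0.05. This was Pou2f2, which encodes the transcription factor OCT2 and had means of 2.82 ± 0.15 and 3.24 ± 0.07 (SD, n = 4 each). Its log2 fold change was 0.42 (limma adjusted p = 0.396) with no overlap between the groups, on only 25 to 131 reads per library. Over all genes, 11.3% had an unadjusted limma p under 0.05 and 6.78% had groups without overlap. Next by p were, with log2 fold changes in brackets, Adgre4 (0.39), an adhesion receptor, and the integrin gene Itgal (0.15), at 0.25 without NPC B and 0.085 without NPC D. The median of this list ran from -0.23 without NPC B to -0.0060 without PBS 3. Of 15 genes gained on the way to dendritic cells 10 were higher and 5 lower (median 0.16), and of 16 genes gained on the way to macrophages 11 were higher and 5 lower (median 0.05). None of these passed, nor had any an unadjusted p under 0.05. The genes with the smallest p, with their log2 fold changes in brackets, were Ciita (0.26), the master regulator of MHC class II, Cd74 (0.36), its invariant chain, and Cd86 (0.25), a costimulatory molecule, and in the macrophage list the Fc receptor gene Fcgr1 (-0.19), the mannose receptor gene Mrc1 (0.36) and Apoe (-0.21). With each library left out these ran from 0.14 to 0.42 for Ciita, 0.19 to 0.58 for Cd74, 0.060 to 0.40 for Cd86, -0.24 to -0.12 for Fcgr1, 0.12 to 0.74 for Mrc1 and -0.37 to -0.11 for Apoe. The median of the dendritic cell list turned to -0.054 without NPC B, and that of the macrophage list to -0.068 without PBS 1 and -0.087 without NPC D. A wide shift within the dendritic cell list was again between libraries: its mean log2 level was 7.19 in NPC B, the library with the lowest Chil3, F13a1 and Ly6c2, and 5.96 to 6.67 in the other 7. This mean weights weakly expressed genes as much as strong ones, such as Cd209a (4.22 in NPC B, 0.51 to 2.69 elsewhere). Summed on the linear scale, the same list was highest in NPC D (17998) and stood at 15229 in NPC B, below PBS 2 (15921) and NPC C (15796). The macrophage list had its highest mean levels in PBS 4 (7.85), NPC D (7.81) and NPC C (7.72), the libraries with the highest Chil3, and 7.04 to 7.48 in the other 5. Its lowest mean, however, was in NPC A (7.04), where Chil3 was next highest (11.16). The list also holds Arg1, which was named above for its likeness to Chil3.

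**Figure D5:**
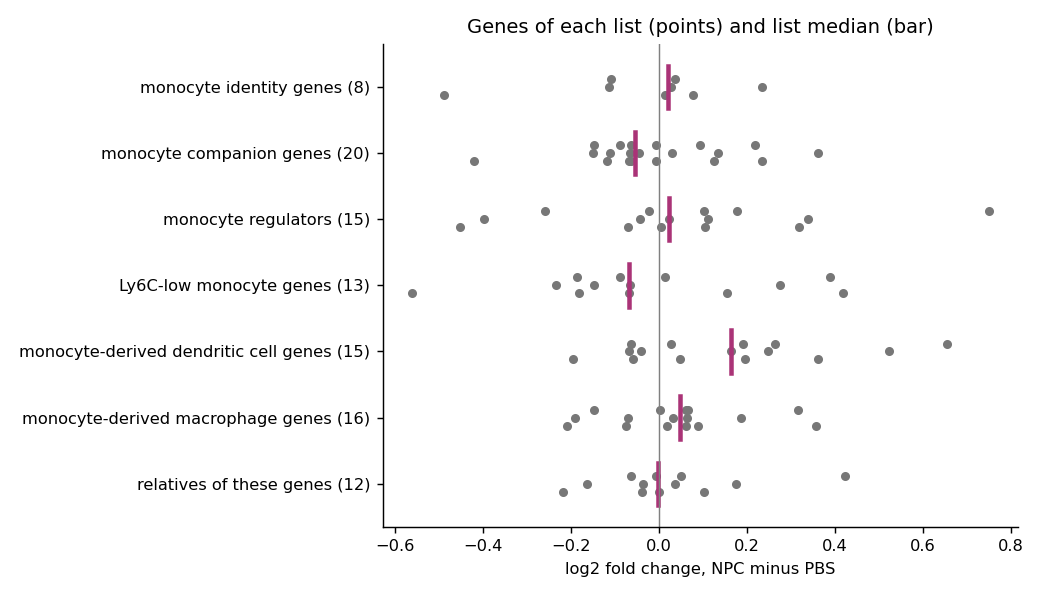
Log2 fold change (x axis, NPC minus PBS) of each measured gene (grey points, number of genes in brackets) in the 8 monocyte identity genes and in 6 lists of related genes; purple bars are list medians. The medians lie between -0.07 and 0.16, and no point passed the test over all genes.

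Markers of other cells were read in the same libraries, because several of the 8 genes are shared with them. The 10 measured neutrophil markers summed to 227 to 302 normalised reads per 1000000 in PBS and 286 to 341 in NPC libraries, and none was at 0 reads in any library. The sum is led by Csf3r and Mmp8 and was highest in NPC D, whereas the mean log2 level of the same markers was lowest there (2.31, against 2.71 to 3.62 in the other 7). The markers were divided in NPC D. S100a9 was lowest there (2.94, against 4.83 to 5.93 in the others), as were Ngp, Retnlg, Camp and Ltf on fewer reads. S100a8 was not (4.79, against 4.57 to 5.41 in the others), and Mmp8 (7.02) and Csf3r (7.40) were highest there. Mpo and Elane are not analysed here. The 8 microglial markers summed to 149 to 283 and 179 to 315, highest in NPC B. The 9 T cell markers summed to 68.2 to 82.8 in PBS and 87.5 to 121 in NPC libraries, again highest in NPC B, with no overlap between groups. As a mean log2 level the groups overlapped, with 2.95 in NPC C and 2.78 to 3.09 in PBS. Of the 9, Cd4 and Cd3e did not overlap and had an unadjusted p under 0.05, as 6.78% and 11.3% of all genes did, and 0 passed limma's adjusted test. The 6 markers of conventional dendritic cells summed to 176 to 243 and 150 to 255, also highest in NPC B. The sum is led by Cd24a, which was highest in PBS 4 (7.63, against 7.03 in NPC B). The other markers of this list were each highest in NPC B, among them Xcr1 (4.63, against 0.80 to 3.29 elsewhere), on 7 to 171 reads per library. As a mean log2 level the list stood at 4.81 in NPC B and at 3.10 to 3.78 in the other 7. The 3 measured B cell markers (3.84 to 6.81 and 3.81 to 10.8), 3 NK cell markers (19.4 to 23.4 and 14.9 to 34.04) and 4 plasmacytoid dendritic cell markers (97.5 to 134 and 101 to 143) were measured too. In each of these lists more markers were higher than lower in NPC libraries, against 6440 of 12256 over all genes. The counts were 9 of 10 for neutrophils, 7 of 8 for microglia, 8 of 9 for T cells and 5 of 6 for conventional dendritic cells. They were 3 of 4 for plasmacytoid dendritic cells and 2 of 3 each for B and NK cells. No marker passed limma's adjusted test, and the cause was not tested. For scale, Lyz2 alone stood at 12922 or more in every library. Their part in the levels of the 8 genes was not tested.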

How the data were processed

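RNA-seq of sorted cells was analysed in 8 libraries, 4 per group by sample title. The authors deposited log2 normalised expression values. Limma, HTSeq 0.5.3, STAR 2.3.0, Trimmomatic and build mm10 are named per the submitters' processing notes. The annotation, filters and strand setting are not given in the sources used. The linear values are (whole reads + 0.5) times 1 step per library (100% whole within 0.01), so reads were recovered for depth, thinning and voom.

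Each gene was tested with limma 3.58.1 (R 4.3.3), two-sided, with treatment as the only term, a variance trend and a threshold of 0.05 after Benjamini-Hochberg adjustment across 12256 genes, after a check on simulated data. PCR duplicates cannot be removed, and separate pools are the replicates. The 8 genes, the gene lists and tests were chosen with earlier results of these data known. Named were the 8 genes, up to 3 per list of related genes by smallest p, and the 2 most similar profiles each; 1 gene that this rule names is not reported here. Beyond this rule, Ccr2, Ly6a, Ly6i, Lyz1, Cd209a and genes of the sort were chosen after their values were seen. The single neutrophil, T cell and conventional dendritic cell markers were chosen in that way too. Coordinates, exon lengths and GC content came from GENCODE vM21 (11377 genes matched) and promoters from RefSeq GRCm38.p6 (8 of 8 matched). Alternatives covered variance prior, weights, normalization, filter, pseudocount, depth, voom and omitted libraries; a GC and length correction was added after seeing the data.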

Additional observations from a re-analysis of the deposited data

Results flagged for a closer look

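In the NPC group Chil3 was far lower in NPC B (9.84) than in the other 3 libraries (11.16 to 11.43): the gap to the nearest took 0.83 of the group's range, just past the 95% critical value of Dixon's test for 4 samples. Of 16 groups examined (8 genes in 2 treatments) this was the only one past the limit, and chance flags about 1 in 20. NPC B was also the shallowest library, with 2351 Chil3 reads, and its part in the difference between treatments is shown by the value without it, 0.60 against 0.23.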

How the results depend on the processing

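In 19 alternatives 0 of the 8 genes and 0 genes of the table passed the test, and 25 of 494 fold changes recomputed for 26 named genes changed sign. Before adjustment, the number of the 8 with p under 0.05 went from 0 to 1 (Plac8) with library weights and was 0 to 1 with each library left out, the 1 arising without NPC A or without NPC B. With each library left out the log2 fold change ran from -0.22 to 0.015 for Ly6c2, -0.11 to 0.14 for Lyz2, -0.057 to 0.11 for Gda, -0.21 to 0.36 for F13a1, -0.086 to 0.12 for Ms4a4c, -0.69 to -0.20 for Plac8, 0.025 to 0.60 for Chil3, -0.18 to -0.027 for Emb and -0.063 to 0.31 for the related gene Ms4a7, and the companion list's median from -0.077 to 0.061. Signs also changed with library weights (Ms4a4c -0.0015, Lyz2 -0.031), quantile normalization (Ms4a4c -0.0059, Gda -0.0047), thinning to equal depth (Gda -0.0063), PBS 1 and NPC A left out together (Lyz2 -0.083, Bsg 0.027, Ms4a7 -0.030) and GC and length correction (Ms4a4c -0.12, Gda -0.10, Apoe 0.011, Bsg 0.020). The cause was not tested. Precision was lowest for Chil3 (SE 0.39) and Plac8 (SE 0.30). No paired analysis was possible because no label pairs the libraries.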
